A study of Rattus norvegicus with 12 samples.

Results

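A set of 10 genes of the TGF-beta and BMP signalling pathway was followed through whole rat lung after growth restriction before birth. They are the ligands Tgfb1, Tgfb2, Tgfb3 and Bmp4, the receptors Tgfbr1, Tgfbr2, Tgfbr3 and Bmpr2, and the intracellular proteins Smad3 and Smad7. They were chosen by name and found through the RefSeq identifier of each row of the deposited table. Of these 10 genes, 9 had a row, 1 each, among 9615 genes with a symbol; no row matched Bmpr2, the type II receptor of BMPs, so it is not analysed here. The rows were NM_021578 (Tgfb1), NM_031131 (Tgfb2), NM_013174 (Tgfb3), NM_012827 (Bmp4), NM_012775 (Tgfbr1), NM_031132 (Tgfbr2), NM_017256 (Tgfbr3), NM_013095 (Smad3) and NM_030858 (Smad7).

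TGF-beta ligands are secreted in a latent form held in the matrix, and once released they bind Tgfbr2, which recruits and activates Tgfbr1. The active receptor phosphorylates Smad2 and Smad3, which enter the nucleus with Smad4, whereas BMP ligands act through their own receptors on Smad1, Smad5 and Smad9. In the lung both branches act on branching, on the myofibroblasts that lay down elastin in the growing septa, and on vessels.

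The tissue was whole lung of Sprague-Dawley pups. IUGR pups had been growth restricted before birth through a low protein diet, and control pups had not. IUGR lungs at postnatal days 4, 10 and 21 and control lungs at the same days gave 6 groups of 2 arrays each, 12 one-colour arrays in all. Each array held RNA pooled from 2 or 3 of 14 IUGR and 15 control pups, and the labels do not say which pups or litters share a pool, so pools may share litters and p-values measure the spread between pools. All values are log2 of the deposited intensity. The arrays of days 4 and 10 share a scale and had median intensities of 411 to 418. Day 21 was processed on a scale of its own and is given apart at the end. The number of arrays limits the precision. Because the tissue is bulk lung, fewer cells of a type and less RNA per cell cannot be told apart.

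The tissue label fitted its markers: 7 of 8 alveolar type 2 markers were measured, with summed intensities of 94182 to 121930 on the 8 arrays of days 4 and 10. IUGR day 4 replicate 2 and IUGR day 10 replicate 2 stood apart from the other arrays of their day by markers of other tissues. The 6 measured of 9 heart muscle markers summed to 71681 on IUGR day 4 replicate 2, against 25427 on IUGR day 4 replicate 1 and 34239 and 27479 in control lungs. At day 10 they summed to 36602 on IUGR replicate 2 and 13754 on replicate 1, against 8789 and 8763 in control lungs. The 5 measured of 7 fat markers were highest on the same pair, with 29284 at day 10 and 19572 at day 4. IUGR day 10 replicate 1 had a fat sum of 7787, against 2097 and 3138 in control lungs. That array was thus also above control in heart and fat markers, and the fits without the pair keep it. At day 4 the fat sum was 3624 on IUGR replicate 1, against 4020 and 3903 in control lungs. The lowest intensity on these 8 arrays was 113, so markers near that low end still add to these sums. Results that rest on this pair are given with and without it.

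The promoters of Tgfb2, Tgfb3, Bmp4 and Tgfbr3 are printed because the results below turn on these genes. The first 3 differed between the days. Tgfbr3 was the 1 member whose 4 IUGR arrays of days 4 and 10 all lay below the 4 control arrays, as 1.64% of all features did. Each sequence is the RefSeq window of 250 bases before to 50 after the annotated start, in build GRCr8, 5′ to 3′ on the gene's strand. The windows lie at chr13:100792636-100792935 on the minus strand for Tgfb2 and chr6:111456897-111457196 on the minus strand for Tgfb3. Those of Bmp4 and Tgfbr3 lie at chr15:22101884-22102183 on the minus strand and chr14:2634044-2634343 on the plus strand. Capitals mark the motifs that were found.
Tgfb2: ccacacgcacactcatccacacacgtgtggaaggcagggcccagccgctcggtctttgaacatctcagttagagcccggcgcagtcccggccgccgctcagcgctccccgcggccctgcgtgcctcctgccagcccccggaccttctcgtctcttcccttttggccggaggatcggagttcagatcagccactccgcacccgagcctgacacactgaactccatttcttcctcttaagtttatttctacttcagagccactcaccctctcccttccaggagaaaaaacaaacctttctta
Tgfb3: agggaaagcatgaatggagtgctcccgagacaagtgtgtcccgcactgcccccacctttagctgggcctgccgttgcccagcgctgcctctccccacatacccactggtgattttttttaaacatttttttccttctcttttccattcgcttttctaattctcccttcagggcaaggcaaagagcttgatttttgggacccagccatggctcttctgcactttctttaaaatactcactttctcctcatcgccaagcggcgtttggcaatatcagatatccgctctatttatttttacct
Bmp4: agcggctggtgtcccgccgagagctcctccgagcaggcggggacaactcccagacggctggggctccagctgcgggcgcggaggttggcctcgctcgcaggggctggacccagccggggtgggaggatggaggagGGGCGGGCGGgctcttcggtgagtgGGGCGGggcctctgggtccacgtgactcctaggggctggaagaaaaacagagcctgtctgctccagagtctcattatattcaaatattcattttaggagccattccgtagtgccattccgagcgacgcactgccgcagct
Tgfbr3: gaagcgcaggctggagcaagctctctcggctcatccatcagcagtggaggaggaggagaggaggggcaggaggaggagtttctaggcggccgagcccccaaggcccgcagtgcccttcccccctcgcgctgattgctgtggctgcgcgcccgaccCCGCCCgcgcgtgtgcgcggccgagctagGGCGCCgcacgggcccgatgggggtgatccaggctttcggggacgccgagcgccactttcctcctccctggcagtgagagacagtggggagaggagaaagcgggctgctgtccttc

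A search for 6 motifs covered both strands of 27457 rat promoter windows, 1 per gene. They were the cAMP response element TGACGTCA (in 1.91% of windows), the Smad palindrome GTCTAGAC (0.215%), the GC-rich Smad site GGCGCC (11.8%), the Sp1 box GGGCGG (34.9%), the TATA box TATAAA (14.3%) and the CAGA box AGCCAGACA (0.386%). The windows of Tgfb1, Tgfb2 and Tgfb3 held none of these strings. Bmp4 held 3 Sp1 boxes on the plus strand, starting at -115, -111 and -90 relative to the annotated start, and the first and second of them overlap. Tgfbr3 held 1 Sp1 box on the minus strand, at -95 to -90, and 1 GGCGCC at -66 to -61. Over the 10 genes, 7 windows held an Sp1 box and 4 held GGCGCC, and none held the other 4 motifs. A match describes letters only, and the absence of one says only that these letters are not in this window.

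Between days 4 and 10, over which septa form in the rat lung, 3 of the 4 ligands passed the test in at least 1 diet. Of all features, 13.0% passed in IUGR lungs and 4.28% in control lungs. Of the 16 measured BMP, GDF and activin ligands outside this set, 0 passed in IUGR lungs and 1 in control lungs. Tgfb2 and Tgfb3 rose in IUGR and in control lungs by a log2 of 0.45 to 0.54, and Bmp4 fell in IUGR lungs by 0.54. Bmp4 in control lungs and Tgfb1 in either diet did not pass. None of the receptors and neither Smad passed the test in either diet. The test was limma over all 26208 features with Benjamini-Hochberg adjustment, and a gene passed at an adjusted p under 0.05.

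Tgfb2, a ligand that in the mouse is needed for normal lung and heart development, had 12.67 and 12.77 at day 10 in IUGR lungs, against 12.22 and 12.13 at day 4 in IUGR lungs. In control lungs it had 12.79 and 12.75 at day 10, against 12.37 and 12.26 at day 4. All 4 day 10 arrays lay above all 4 day 4 arrays. The share of all features whose days did not overlap is not given, here or for the genes below. Such a placement therefore only describes the values. The difference was 0.54 ± 0.09 in IUGR lungs, which is 1.46-fold (adjusted p = 0.0101), and 0.45 ± 0.09 in control lungs, which is 1.37-fold (SE, n = 2 and 2, adjusted p = 0.0329). In order of level, control day 10 (12.77 ± 0.03) stood next to IUGR day 10 (12.72 ± 0.07), and control day 4 (12.32 ± 0.07) next to IUGR day 4 (12.18 ± 0.07; SD, n = 2). Only the step between the days passed the test, while the neighbours at one day did not pass.

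Tgfb3, the third TGF-beta isoform, whose loss in the mouse gives cleft palate and delayed lung maturation, moved in the same direction. Its levels were 10.80 and 10.88 at day 10 in IUGR lungs, against 10.27 and 10.38 at day 4 in IUGR lungs. Control lungs had 10.88 and 10.92 at day 10, against 10.42 and 10.46 at day 4. Here too, every day 10 array lay above every day 4 array. Tgfb3 was higher at day 10 by 0.52 ± 0.08 in IUGR lungs, 1.43-fold (adjusted p = 0.0103), and by 0.46 ± 0.08 in control lungs, 1.38-fold (adjusted p = 0.0277).

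Bmp4, a ligand of the BMP branch that in the mouse acts in the distal tips of the developing lung, ran the other way. It had 10.66 and 10.45 at day 10 in IUGR lungs, against 11.10 and 11.08 at day 4 in IUGR lungs. In control lungs the values were 10.57 and 10.67 at day 10, against 11.01 and 10.78 at day 4. The day 10 arrays lay below the day 4 arrays in both diets. The difference was -0.54 ± 0.11 in IUGR lungs, a ratio of 0.689 (adjusted p = 0.0222), and -0.27 ± 0.11 in control lungs (adjusted p = 0.216). The difference between these differences was -0.27 ± 0.16 and did not pass (adjusted p = 0.766), so the fall in IUGR lungs is not shown to differ from the value in control lungs.

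Tgfb1, the most studied TGF-beta isoform, had 9.59 and 9.83 at day 10 in IUGR lungs, against 9.89 and 9.69 at day 4. Control lungs had 9.66 and 9.84 at day 10, against 9.66 and 9.68 at day 4. The days overlapped in both diets, with differences of -0.08 ± 0.12 in IUGR lungs (95% interval -0.35 to 0.19) and 0.08 ± 0.12 in control lungs (-0.19 to 0.35). The 95% intervals of Tgfb1 do not reach the estimates for Tgfb2 and Tgfb3 in control lungs. In control lungs the intervals of Tgfb2 (0.25 to 0.65) and Tgfb3 (0.27 to 0.65) overlap that of Tgfb1. A difference between these genes was not tested.

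**Figure D1:**
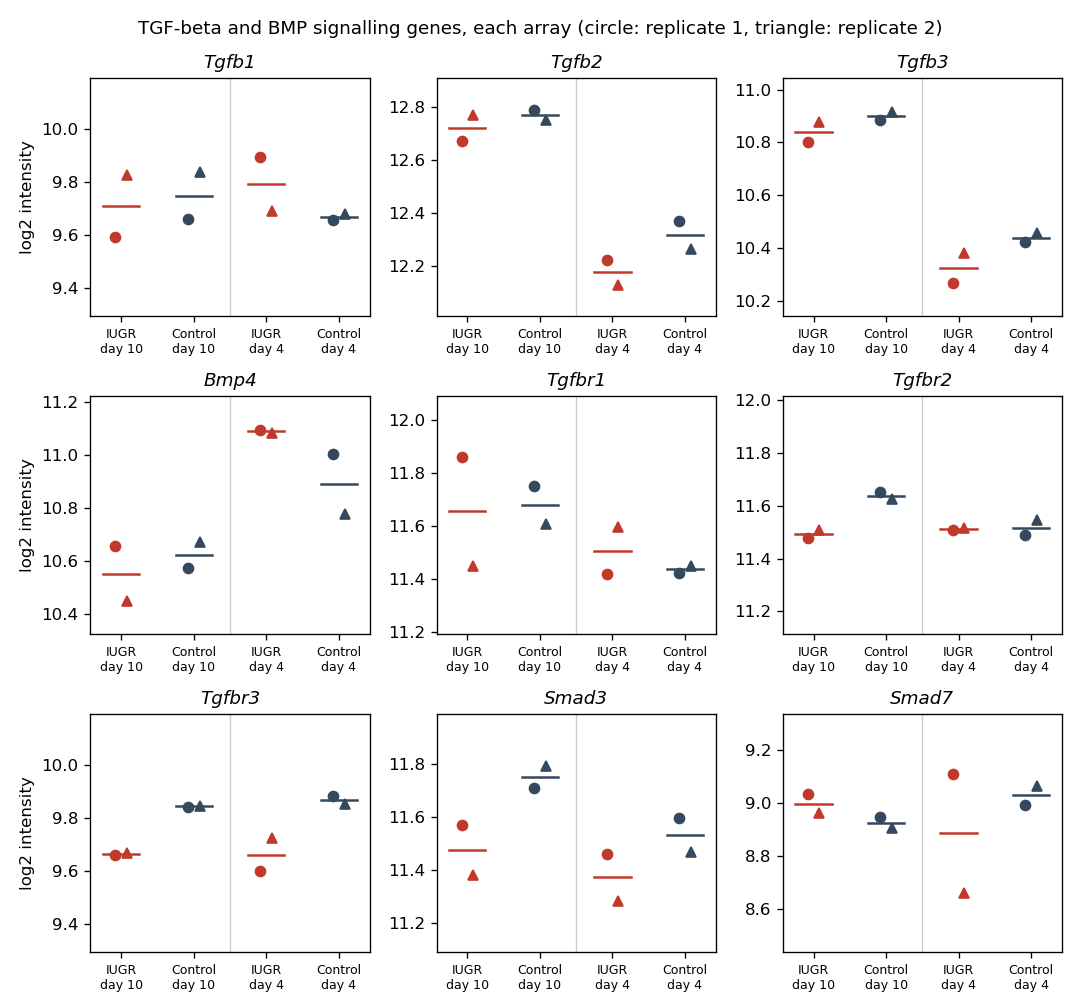
Log2 intensity of the 9 measured genes on each array of days 10 and 4 (circles, replicate 1; triangles, replicate 2; bars, group means; IUGR red, control dark), every panel spanning the same height. Tgfb2 and Tgfb3 are higher at day 10 on all arrays, Bmp4 is lower, and Tgfbr3 is lower on all 4 IUGR arrays than on all 4 control arrays.

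In counts, 3 of 9 members passed in IUGR lungs, where 13.0% of all features passed: 2 members were higher at day 10 (6.83% of features) and 1 was lower (6.16%). In control lungs 2 of 9 passed, where 4.28% of all features passed: 2 were higher (2.29% of features) and 0 lower (1.99%). The median difference of the 9 members was 0.10 in IUGR lungs and 0.12 in control lungs, and over all features it was -0.03 in IUGR lungs and -0.01 in control lungs. These calls rest on few arrays. Without any 1 of the 4 control arrays, neither Tgfb2 (0.40 to 0.51) nor Tgfb3 (0.44 to 0.48) passed in control lungs, with adjusted p-values up to 0.210. In IUGR lungs 0 members passed without day 10 replicate 1, with adjusted p-values of 0.0518 for Tgfb2, 0.0559 for Tgfb3 and 0.0608 for Bmp4 in limma. Bmp4 also did not pass without day 10 replicate 2 (adjusted p = 0.0887), one of the arrays high in heart and fat markers. Without both of those arrays Tgfb3 alone passed in IUGR lungs, with Tgfb2 at 0.45 (adjusted p = 0.0510) and Bmp4 at -0.44 (adjusted p = 0.0940).

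The change averaged over both diets, 4 arrays against 4, was added after the values had been seen. Tgfb2 was higher at day 10 by 0.50 ± 0.06 (adjusted p = 0.00216) and Tgfb3 by 0.49 ± 0.06 (adjusted p = 0.00203), and both passed with any 1 of the 8 arrays left out. Bmp4 fell by 0.40 on the log2 scale with an SE of 0.08 (adjusted p = 0.0110) and passed in 7 of those 8 fits. The exception was the fit without control day 10 replicate 1, where its adjusted p was 0.0523. On this average 3 of 9 members passed, 2 higher and 1 lower, where 21.6% of all features did, 10.3% higher and 11.3% lower. Every measured member was brighter than the dimmest 30% of features. Without those, 2548 of 18345 features were higher and 3111 lower, a larger share than over all features. The share was also larger in each diet taken apart.

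Among the receptors, Tgfbr1, the type I kinase receptor, had 11.86 and 11.45 at day 10 in IUGR lungs, against 11.42 and 11.60 at day 4, and these overlapped. In control lungs it had 11.75 and 11.61 at day 10, against 11.42 and 11.45 at day 4, without overlap. Neither difference passed, at 0.15 ± 0.14 in IUGR lungs (adjusted p = 0.524) and 0.24 ± 0.14 in control lungs (adjusted p = 0.380). Averaged over both diets, Tgfbr1 passed in the fits without IUGR day 10 replicate 2, with a value of 0.30 (adjusted p = 0.0461), and without both arrays high in heart and fat markers, with 0.34 (adjusted p = 0.0199), while over all 8 arrays it was 0.20 ± 0.10 (adjusted p = 0.205). Tgfbr2 and the co-receptor Tgfbr3 differed by at most 0.12 between the days in either diet.

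Smad3, the receptor-activated Smad of the TGF-beta branch, differed between the days by 0.10 ± 0.11 in IUGR lungs (adjusted p = 0.572) and 0.22 ± 0.11 in control lungs (adjusted p = 0.290). Smad7, the inhibitory Smad that TGF-beta signalling itself induces, was 0.11 ± 0.14 higher at day 10 in IUGR lungs and -0.10 ± 0.14 in control lungs, and neither passed (adjusted p = 0.636 and 0.747). Their values by array are given with the comparison of diets.

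**Figure D2:**
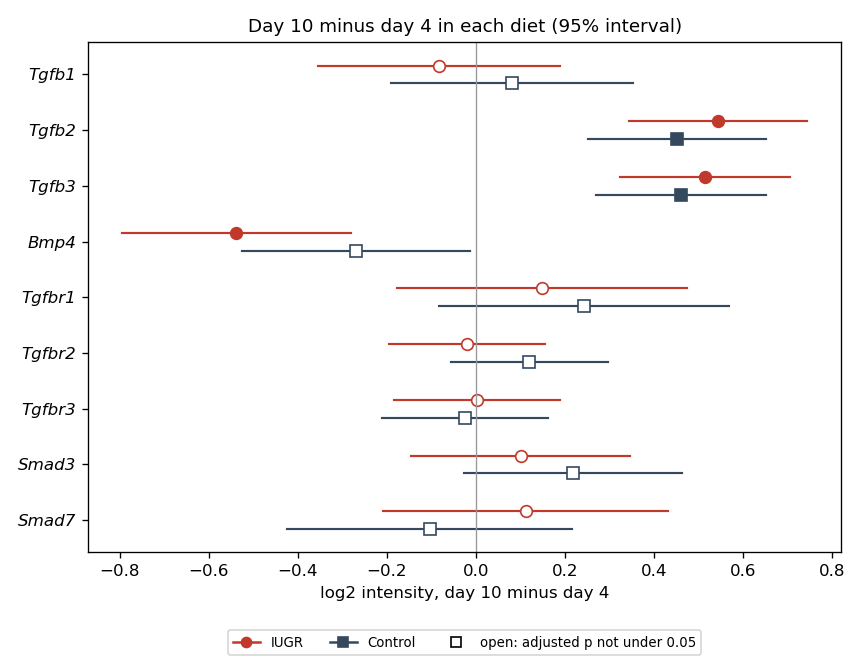
Day 10 minus day 4 in log2 intensity for each gene, in IUGR lungs (red circles) and control lungs (dark squares), with 95% intervals from limma. Filled symbols have an adjusted p under 0.05, which holds for Tgfb2 and Tgfb3 in both diets and for Bmp4 in IUGR lungs.

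Cell type markers also differed between the days. The alveolar type 2 list summed to 97088 and 94182 at day 10 in IUGR lungs, against 114550 and 121930 at day 4 in IUGR lungs. In control lungs it summed to 99790 and 97564 at day 10, against 113430 and 115890 at day 4. The summed intensity of the macrophage markers, 4 of 6 measured, was also lower at day 10, at 24340 to 25850 in IUGR lungs and 28448 to 30256 in control lungs, against 32013 to 32852 in IUGR lungs and 32464 to 33027 in control lungs at day 4. That sum follows its brightest gene, Lyz2. The mean log2 of the 4 markers was 11.23 and 11.14 at day 10 in IUGR lungs, against 11.27 and 11.34 at day 4, but in control lungs it was higher, at 11.29 and 11.26 at day 10, against 11.12 and 11.13 at day 4. Adgre1 was higher at day 10 in control lungs, with 9.17 and 9.04, against 8.52 and 8.63 at day 4, so the list did not move as a whole. Markers of fibroblasts and smooth muscle, 5 of 8 measured, summed to 38518 and 43902 at day 10 in IUGR lungs, against 39615 and 35909 at day 4, and overlapped. In control lungs they summed to 41926 and 43513 at day 10, against 40057 and 40436 at day 4. The brightest genes of that sum are Acta2 and Tagln. Pdgfrb was higher at day 10, with 12.328 and 12.152 in IUGR lungs, against 11.775 and 11.750 at day 4. In control lungs Pdgfrb had 12.274 and 12.301 at day 10, against 11.633 and 11.827 at day 4. Tcf21 was lower at day 10, with 11.304 and 11.391 in IUGR lungs, against 11.509 and 11.547. Control lungs had Tcf21 at 11.609 and 11.571, against 11.668 and 11.654. Heart muscle markers summed to 8789 and 8763 at day 10 in control lungs, against 34239 and 27479 at day 4. In IUGR lungs they summed to 13754 and 36602 at day 10, against 25427 and 71681 at day 4, and overlapped. Leaving out the IUGR arrays high in heart and fat markers keeps these control arrays in the fit. The part of all these markers in the ligand differences was not tested.

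The comparison of IUGR with control lungs asked what growth restriction before birth changes in these genes while alveoli form. Tgfbr3 and Smad3 were lower in IUGR lungs at both days, by a log2 of 0.16 to 0.28, and neither passed the test over all features. In limma 0 of 9 members and 0 of 26208 features (0.0%) passed at day 4, at day 10 or on the average of both days. The count over all features depended on the IUGR day 4 arrays. Without IUGR day 4 replicate 1, 311 features were higher and 333 lower at day 4, and 101 higher and 65 lower on the average of the days. Without IUGR day 4 replicate 2 there were 51 higher and 38 lower at day 4, and 26 higher and 23 lower on the average. No member was among those that passed in any of the alternative fits. At an unadjusted p under 0.05, Tgfbr3 was the 1 member lower at day 4 (5.47% of all features) and Smad3 the 1 member lower at day 10 (4.11%). These 2 were lower on the average of the days (5.41%), and 0 members were higher. The median IUGR minus control difference over the 9 members was -0.11 at day 4 and -0.06 at day 10, against 0.00 and -0.01 over all features.

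Tgfbr3, also called betaglycan, is a co-receptor that presents TGF-beta, TGF-beta2 above all, to the signalling receptors and also binds inhibin and BMPs. At day 4 it had 9.60 and 9.72 in IUGR lungs, against 9.88 and 9.85 in control lungs. At day 10 it had 9.66 and 9.67 in IUGR lungs, against 9.84 and 9.85 in control lungs. All 4 IUGR arrays lay below all 4 control arrays, and Tgfbr3 was the 1 member of 9 for which this held, where 1.64% of all features were placed this way. The IUGR minus control difference was -0.21 ± 0.08 at day 4 (ratio 0.867, adjusted p = 0.484) and -0.18 ± 0.08 at day 10 (ratio 0.883, adjusted p = 0.635). On the average of both days it was -0.19 ± 0.06, with a 95% interval of -0.32 to -0.06 (adjusted p = 0.407), and without the arrays high in heart and fat markers it was -0.23 (adjusted p = 0.263).

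Smad3 had 11.46 and 11.28 at day 4 in IUGR lungs, against 11.60 and 11.47 in control lungs. At day 10 it had 11.57 and 11.38 in IUGR lungs, against 11.71 and 11.79 in control lungs. IUGR lay below control without overlap within each day, although IUGR day 10 replicate 1 was above control day 4 replicate 2. The difference was -0.16 ± 0.11 at day 4 (adjusted p = 0.654) and -0.28 ± 0.11 at day 10 (ratio 0.825, adjusted p = 0.577). Smad3 was lowest of its day on the 2 IUGR arrays high in heart and fat markers. Without them the average over both days was -0.13 (adjusted p = 0.512), against -0.22 ± 0.07 with all 8 arrays (adjusted p = 0.423).

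Within the set 3 of 9 members, Tgfb3, Tgfbr3 and Smad3, were lower in IUGR without overlap within day 4 and again within day 10, where 5.16% of all features were. Tgfb3 did so by small amounts, at -0.11 ± 0.08 at day 4 (adjusted p = 0.683) and -0.06 ± 0.08 at day 10 (adjusted p = 0.918). At day 4 alone 4 of 9 members were lower in IUGR without overlap (19.1% of all features) and 2 were higher (18.3%). At day 10 alone 4 were lower (23.6%) and 1 was higher (19.9%).

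The other ligands showed smaller differences. Bmp4 at day 4 was 0.20 ± 0.11 higher in IUGR lungs (95% interval -0.06 to 0.45, adjusted p = 0.596), with both IUGR arrays above both control arrays, and at day 10 it was -0.07 ± 0.11 (adjusted p = 0.928). Tgfb2 was -0.14 ± 0.09 at day 4 and -0.05 ± 0.09 at day 10, and Tgfb1 was 0.12 ± 0.12 and -0.04 ± 0.12. For these ligands the 95% intervals include 0 and reach at most 0.45 in size, which leaves larger differences outside them.

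Of the signalling receptors, Tgfbr2 had 11.51 and 11.52 at day 4 in IUGR lungs, against 11.49 and 11.54 in control lungs, and overlapped. At day 10 Tgfbr2 had 11.48 and 11.51 in IUGR lungs, against 11.65 and 11.62 in control lungs, and did not. Its difference was 0.00 ± 0.08 at day 4 and -0.15 ± 0.08 at day 10 (adjusted p = 0.692). Tgfbr1 overlapped at both days and differed by 0.07 ± 0.14 at day 4 and -0.02 ± 0.14 at day 10. Smad7 had 9.11 and 8.66 at day 4 in IUGR lungs, against 8.99 and 9.06 in control lungs, the widest spread between replicates at these days. At day 10 Smad7 had 9.03 and 8.96 in IUGR lungs, against 8.95 and 8.90 in control lungs, a difference of 0.07 ± 0.14 (adjusted p = 0.949).

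The summed markers of vessels and thin epithelium did not overlap between diets at day 10 and overlapped at day 4. Endothelial markers, 3 of 7 measured (Pecam1, Kdr and Cldn5), summed to 14102 and 12846 at day 10 in IUGR lungs, against 16031 and 15950 in control lungs. At day 4 they summed to 14705 and 14166 in IUGR lungs, against 14325 and 15140 in control lungs. Alveolar type 1 markers, 6 of 7 measured, summed to 62868 and 62059 at day 10 in IUGR lungs, against 66034 and 66876 in control lungs. At day 4 they summed to 62941 and 61584 in IUGR lungs, against 62663 and 62152 in control lungs. Pdpn is the brightest gene of that sum, and the mean log2 of the 6 markers did not overlap at either day. It was 12.54 and 12.48 at day 4 in IUGR lungs, against 12.46 on both control arrays, and 12.41 and 12.39 at day 10 in IUGR lungs, against 12.61 on both control arrays. The part of these cells in the differences was not tested.

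**Figure D3:**
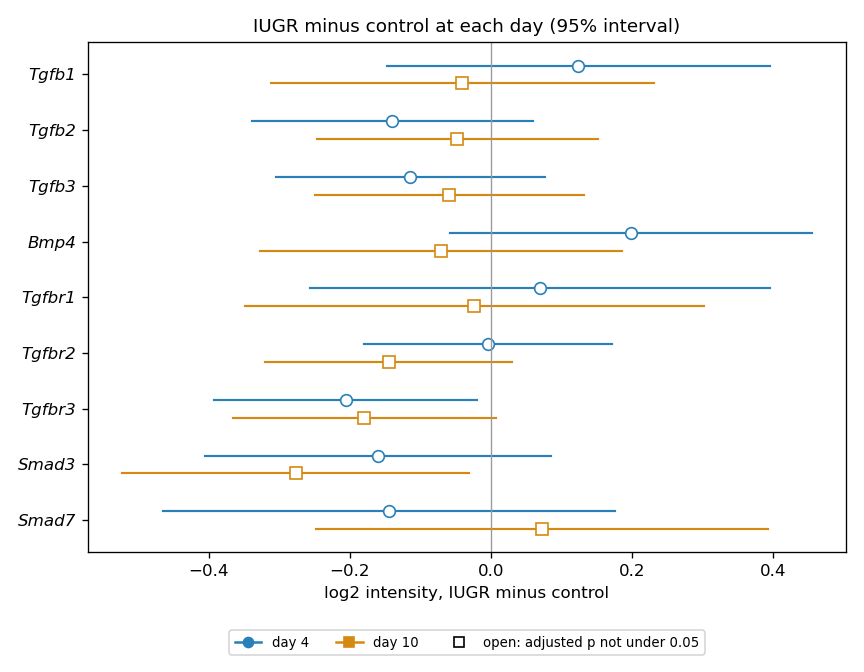
IUGR minus control in log2 intensity for each gene at day 4 (blue circles) and day 10 (orange squares), with 95% intervals from limma. Every symbol is open because no gene passed, and the intervals that leave out 0 are those of Tgfbr3 at day 4 and Smad3 at day 10.

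Whether the IUGR effect differed between days 10 and 4 was tested directly. In limma 0 of 9 members and 0 of 26208 features (0.0%) passed, while without IUGR day 4 replicate 1 there were 97 features higher and 55 lower, no member among them. Over all arrays 0 members had an unadjusted p under 0.05 (7.38% of all features). The day 10 effect minus the day 4 effect ran between -0.27 ± 0.16 for Bmp4 and 0.22 ± 0.20 for Smad7.

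Other genes of the pathway were taken from 6 lists, of which 76 of 124 genes outside the members were measured. None of the 76 passed in IUGR against control at day 4 or day 10, and none passed on the average of the days. At an unadjusted p under 0.05 there were 4 higher and 2 lower at day 4, where 4.12% of all features were higher and 5.47% lower. At day 10 there were 4 higher and 8 lower, where 3.88% of all features were higher and 4.11% lower. Of these, Mstn, myostatin, and Bmp6, a BMP ligand, were chosen after their values were seen. Mstn had 7.21 and 7.18 at day 10 in IUGR lungs, against 8.62 and 7.80 in control lungs, a difference of -1.01 ± 0.23 (adjusted p = 0.433). Its control values were far apart, and its IUGR values lay near the low end of these arrays. Gdf9, a further ligand of the lists, had 7.12 and 7.02 on the same IUGR arrays. Bmp6 had 10.70 and 10.28 at day 4 in IUGR lungs, against 10.99 and 10.97 in control lungs. At day 10 Bmp6 had 10.77 and 10.65 in IUGR lungs, against 11.25 and 11.04 in control lungs. All 4 IUGR arrays of Bmp6 lay below all 4 control arrays, with differences of -0.49 ± 0.14 at day 4 (adjusted p = 0.387) and -0.43 ± 0.14 at day 10 (adjusted p = 0.523). Of the fixed panel, follistatin, Fst, a secreted antagonist of activins and BMPs, had 9.60 and 9.85 at day 10 in IUGR lungs, against 9.22 and 9.32 in control lungs. Its IUGR arrays were above its control arrays by 0.45 ± 0.12, but it did not pass (adjusted p = 0.441). Elastin, Eln, a TGF-beta target and the core of elastic fibres, had 10.78 and 10.68 at day 4 in IUGR lungs, against 10.46 and 10.50 in control lungs. At day 10 Eln had 11.29 and 11.27 in IUGR lungs, against 11.41 and 11.48 in control lungs. The IUGR arrays of Eln were thus above control at day 4 and below it at day 10, and the difference between these effects, -0.42 ± 0.11, did not pass (adjusted p = 0.504).

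Between the days 9 of the 76 passed in IUGR lungs, 5 higher and 4 lower, where 13.0% of all features did, and 8 passed in control lungs, 6 higher and 2 lower, where 4.28% did. On the average of both diets 17 passed, 6 higher and 11 lower, where 21.6% of all features did. In IUGR lungs and on the average these counts are near the share of all features. Most measured genes of each list did not pass, and the median difference over the 76 genes on that average was -0.02, the same as over all features. On that average Eln was higher at day 10 by 0.75 ± 0.06 (adjusted p = 0.000617). Nox4, an oxidase induced by TGF-beta in fibroblasts, was higher by 0.95 ± 0.09 (adjusted p = 0.00111). Ltbp2, an elastic fibre protein of the latent TGF-beta binding family, was higher by 0.41 ± 0.06 (adjusted p = 0.00425), and Htra1, a secreted protease that can bind TGF-beta family ligands, by 0.46 ± 0.06 (adjusted p = 0.00243).

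Nox4 had 11.57 and 11.22 at day 10 in IUGR lungs, against 10.38 and 10.22 at day 4, and 11.41 and 11.40 at day 10 in control lungs, against 10.50 and 10.70 at day 4. Each diet taken apart, Eln, Nox4, Htra1, Acvr2b and Ltbp2, all higher at day 10, and Id2, lower at day 10, passed in IUGR and in control lungs alike. Mstn passed in control lungs (1.08 ± 0.23, adjusted p = 0.0437), where its day 10 arrays were 8.62 and 7.80 and its day 4 arrays 7.09 and 7.16. These day 10 values were far apart, and the day 4 values lay near the low end of the arrays. In IUGR lungs Mstn had 7.21 and 7.18 at day 10, against 7.68 and 7.46 at day 4. Mstn differed there by -0.37 ± 0.23 (adjusted p = 0.317). The test of the difference between the diets gave -1.46 ± 0.32 and did not pass (adjusted p = 0.378).

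Among the 11 genes that fell on the average of both diets were Id1, Id2, Id3, Smad9 and Bambi, which are set together here after their values were seen and do not stand for the BMP branch. The 16 measured BMP, GDF and activin ligands outside the members lay 8 above and 8 below 0 on that average, with a median of -0.02. The Id genes encode inhibitors of helix-loop-helix factors and are direct BMP-Smad targets. Id1 had 8.20 and 8.22 at day 10 in IUGR lungs, against 8.72 and 8.60 at day 4, and 8.24 and 8.24 at day 10 in control lungs, against 8.54 and 8.54 at day 4. On the average of both diets Id1 was -0.37 ± 0.06 (adjusted p = 0.00460), Id2 -0.37 ± 0.05 (adjusted p = 0.00403) and Id3 -0.24 ± 0.07 (adjusted p = 0.0457). Smad9, a receptor-activated Smad of the BMP branch, was -0.35 ± 0.07 (adjusted p = 0.0103), and Bambi, a receptor without a kinase domain that dampens signalling, was -0.44 ± 0.06 (adjusted p = 0.00327). In Bambi the IUGR value was -0.65 ± 0.08 (adjusted p = 0.00577).

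The remaining named genes of the average were Acvr2b, an activin type II receptor, at 0.49 ± 0.07, and 3 lower ones. Fmod, a small proteoglycan that binds TGF-beta, was -0.34 ± 0.06, Acvr1c, a type I receptor of activins, was -0.57 ± 0.12, and Ccn1, a matricellular protein, was -0.46 ± 0.11, with adjusted p-values of 0.0147 for Acvr1c and 0.0252 for Ccn1. Smad1, Smad2 and Smad4, the other Smads of the panel that had a row, did not pass in any comparison, with averages of 0.22 ± 0.10, -0.09 ± 0.06 and -0.05 ± 0.07 between the days. The same held for Bmp2, Ltbp1, Inhba, Grem1, Fst, Bmpr1a, Acvrl1, Eng and Ccn2, which on that average lay between -0.21 for Inhba and 0.19 for Bmp2.

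**Figure D4:**
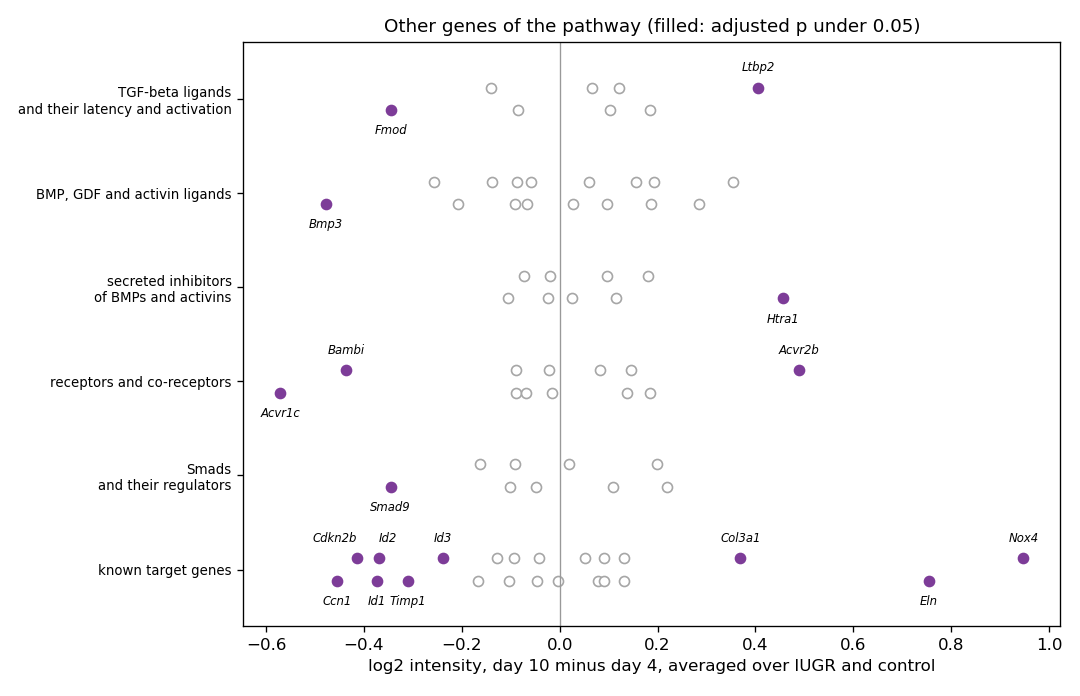
Day 10 minus day 4 in log2 intensity, averaged over IUGR and control lungs, for the 76 measured pathway genes outside the members, by list. Filled points with names passed at an adjusted p under 0.05; 6 lie above 0, led by Nox4 and Eln, and 11 below it.

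The 3 members with the widest range over the 8 arrays were Tgfb2 (0.66), Bmp4 (0.65) and Tgfb3 (0.65), and Tgfbr2 had the narrowest (0.17), where the median range over all features was 0.43. For each of the first 3, the closest profiles among 9614 other genes were found by the root mean square distance between log2 values centred on their mean over the 8 arrays. Tgfb2 was closest to Vom1r103 (0.0300), Gda (0.0570) and Igsf10 (0.0585). Tgfb3 was closest to Igsf10 (0.0532), Tprn (0.0614) and Lrrc74a (0.0615), so Igsf10 stood near both ligands. Bmp4 was closest to Mapk13 (0.0622), Zfp455 (0.0629) and Fancd2 (0.0634). All these points share the same 8 arrays, so the distances describe these arrays only.

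At day 21 the comparison rested on 2 IUGR arrays and 1 control array, with the spread taken from the IUGR arrays alone. In this design changes placed in simulated data did not pass either, so a count of 0 here says nothing about the size of the differences. The arrays also differed in other tissues' markers. Fat markers summed to 1761 and 2321 in IUGR lungs, against 25855 in the control lung pool, and heart muscle markers to 9606 on IUGR replicate 1 and 55995 on IUGR replicate 2, against 33276 in the control pool. Their part in the day 21 values was not tested. Control replicate 2 held values that were not summarised per feature and was left out. In limma 0 of 9 members passed, where 1 of 10097 features did (0.0099%), and 0 members had an unadjusted p under 0.05 (5.46% of these features). Smad7 had 9.03 and 8.55 in IUGR lungs, against 9.05 in the control lung pool, a difference of -0.26 ± 0.29. Tgfbr3 had 10.68 and 10.36 in IUGR lungs, against 10.26 in the control pool, a difference of 0.26 ± 0.26, so its IUGR arrays were on the other side of control than at days 4 and 10. Tgfb1 had 9.50 on both IUGR arrays, against 9.28 in the control pool, a difference of 0.22 ± 0.22.

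The other 6 members differed by at most 0.11 in size at day 21. Bmp4 had 10.79 and 10.63 in IUGR lungs, against 10.60 in the control pool. Tgfb2 had 11.70 and 11.29 in IUGR lungs, against 11.47 in the control pool, and Tgfb3 had 10.77 and 10.91, against 10.79. The single control value thus lay between the IUGR values for both of these ligands. Smad3 had 11.21 and 10.92 in IUGR lungs, against 11.13 in the control pool, Tgfbr1 had 11.71 and 11.69, against 11.77, and Tgfbr2 had 11.92 and 11.82, against 11.93. With 1 control array these values carry no spread for control lungs.

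The values of control replicate 2 could be put back in register after the data had been seen, as the median of 3 consecutive values per feature. The rebuilt array covered 8746 features and all 9 members, and it correlated with control replicate 1 at 0.992 over features, as the IUGR arrays did with each other. The register was chosen by closeness to the other day 21 arrays, and the values were set on their distribution. The correlation is therefore no independent check of the rebuild. In the fit with the rebuilt array, 0 members passed in limma. Tgfb1 had 9.08 on the rebuilt array, below both IUGR arrays as on control replicate 1, and its difference was 0.32 (adjusted p = 0.783). Tgfbr3 had 10.82 there, above both IUGR arrays, which moved its difference to -0.02 (adjusted p = 0.998). Smad7 had 9.23 on it and a difference of -0.35 (adjusted p = 0.852).

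**Figure D5:**
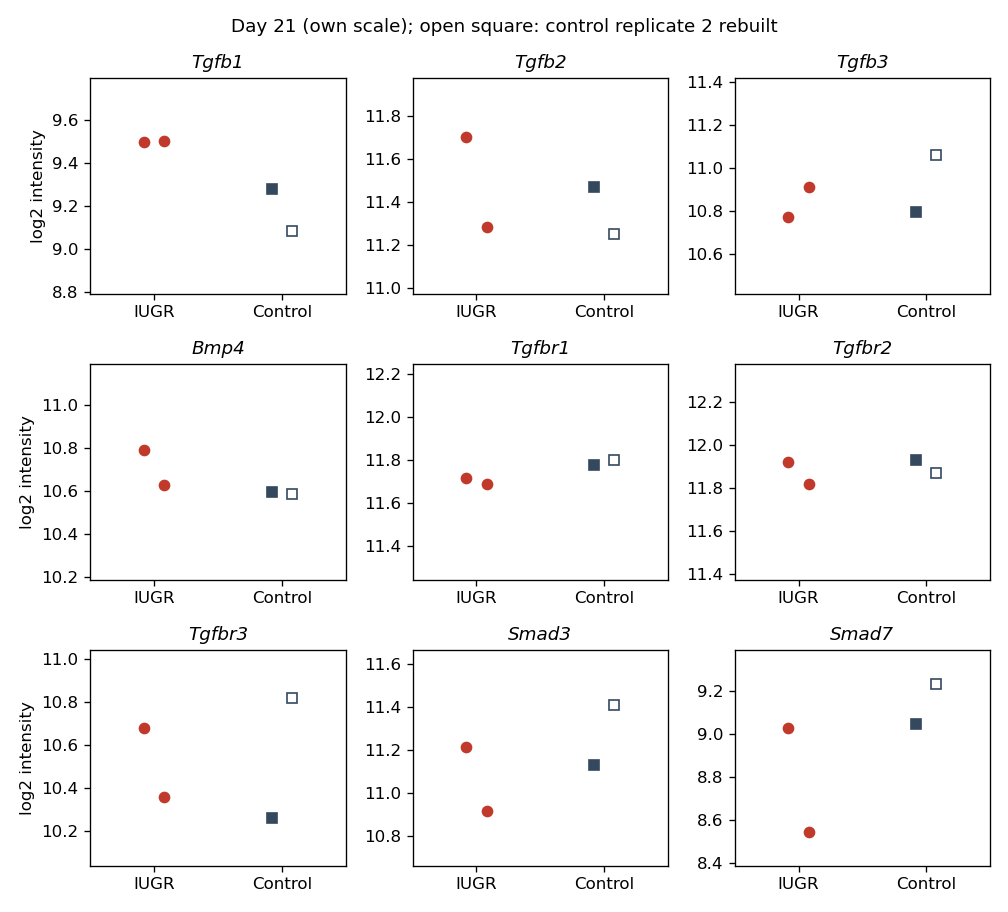
Log2 intensity of the 9 genes at day 21, on its own scale, with IUGR arrays as red circles, control replicate 1 as filled squares and the rebuilt control replicate 2 as open squares. The control squares of Tgfbr3 lie on both sides of the IUGR circles, at 10.26 and 10.82, and those of Tgfb1 lie below them.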

How the data were processed

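Whole lung RNA pools of IUGR and control pups were measured on 12 one-colour Cy3 NimbleGen arrays. The deposited intensity values, 1 per feature, are on a linear scale, and RMA is the step that the submitters' processing notes name, with no version; other upstream settings are not given in the sources used here. Log2 of the deposited intensity was used with no further normalisation. Of 26208 features, 9724 matched 1 symbol through RefSeq identifiers in the gene table of GRCr8.

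limma 3.58.1 in R 4.3.3 fitted 1 mean to each of the 4 groups of days 4 and 10, which left 4 residual degrees of freedom (prior 3.79). p-values were adjusted by Benjamini-Hochberg across all features, with a threshold of 0.05. Day 21 was fitted apart on the 10097 features with NM identifiers, because the others were out of register there (1 residual degree of freedom, prior 3.80). The fits were tested on simulated data with known log2 changes of 1 and 2, 100 features each. For IUGR minus control at day 4, 85 and 97 were recovered, with 15 false calls. For day 10 minus day 4 in controls, 83 and 100 were recovered, with 15 false calls. The day 21 fit recovered 0 of either size. Changes as small as those of the members were not simulated. The simulated spread was drawn independently for each value, from the fit's own estimate. It leaves out deviations that genes share on an array, such as those of heart and fat markers. Errors of differences are standard errors and those of group levels are SD.

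The members, gene lists and motifs were chosen with earlier results of these data known. Named genes were all members, up to 12 other pathway genes per comparison by smallest p among those that passed, a fixed panel of pathway genes, and the 3 closest profiles of each of the 3 widest-ranging members. Of the panel, Bmp5, Bmp7, Ltbp4, Nog, Smad6, Skil and Tgfbi had no matching feature, and a further gene is not reported here. Alternatives were centring each array on its median, quantile normalisation, leaving out the dimmest 30% of features, NM features only, each array left out, the arrays high in heart and fat markers left out, each day fitted alone and a replicate block. The average over diets and the rebuilt control replicate 2 of day 21 were added after seeing the data.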

Additional observations from a re-analysis of the deposited data

How the results depend on the processing

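Over the 9 members and 8 comparisons there were 72 differences, which alternatives recomputed 972 times. Direction and side of the threshold were kept in 893 of these, 16 lost the threshold, 2 gained it (Tgfbr1 between the days on the average of both diets) and 61 changed sign, none of them a difference that had passed. The differences that changed sign in some alternative were at most 0.26 in size, while others as small kept their sign.

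The count of members that passed between the days in control lungs was 0 without any 1 of the 4 control arrays, so over the arrays left out in turn it ranged from 0 to 2, and it was 1 with the replicate block, where Tgfb2 was 0.45 (adjusted p = 0.0556). In IUGR lungs it was 1 without both arrays high in heart and fat markers, and with 1 array left out it ranged from 0 (without day 10 replicate 1) to 3. The deviations of same-numbered arrays correlated at -0.226 to 0.187 between groups. With 2 arrays per group this does not settle whether the replicate numbers pair the samples. The replicate block changed no other member call.

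Over all features, day 10 minus day 4 in control lungs had 601 higher and 522 lower, against 2 and 5 without control day 4 replicate 1 and 1557 and 1440 without both arrays high in heart and fat markers. In IUGR lungs there were 1791 higher and 1614 lower, against 354 and 150 without IUGR day 10 replicate 1, and on the average of diets 2711 and 2958, against 1407 and 1203 without control day 10 replicate 2. Without both arrays high in heart and fat markers, IUGR minus control had 30 higher and 30 lower at day 4.

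Without both arrays high in heart and fat markers, IUGR minus control at day 4 turned to -0.019 for Tgfbr1 and 0.081 for Smad7, and at day 10 to 0.18 for Tgfbr1 and 0.033 for Bmp4. The average of both days for Smad7 turned to 0.094, and the day 10 effect minus the day 4 effect turned to 0.20 for Tgfbr1 and -0.0037 for Tgfb2. Smad7 between the days turned to -0.077 in IUGR lungs and -0.090 on the average of diets, where Tgfbr3 turned to 0.017. Quantile normalisation turned Tgfbr3 between the days to 0.014 in control lungs and 0.030 on the average, and Tgfb1 to 0.041 on the average. Median centring turned Tgfb1 there to 0.0075 and Tgfbr2 at day 4 to 0.0070.

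With 1 array left out, IUGR minus control at day 4 ranged from -0.37 to 0.081 for Smad7, -0.019 to 0.16 for Tgfbr1 and -0.033 to 0.024 for Tgfbr2. At day 10 it ranged from -0.17 to 0.033 for Bmp4, -0.16 to 0.077 for Tgfb1, -0.096 to 0.00078 for Tgfb2 and -0.23 to 0.18 for Tgfbr1. Averaged over both days it ranged from -0.15 to 0.076 for Smad7, -0.017 to 0.10 for Tgfb1 and -0.080 to 0.13 for Tgfbr1. The day 10 effect minus the day 4 effect ranged from -0.0086 to 0.44 for Smad7, -0.0014 to 0.11 for Tgfb3, -0.30 to 0.11 for Tgfbr1 and -0.035 to 0.088 for Tgfbr3. Day 10 minus day 4 in IUGR lungs ranged from -0.11 to 0.34 for Smad7, -0.20 to 0.035 for Tgfb1, -0.056 to 0.35 for Tgfbr1 and -0.059 to 0.064 for Tgfbr3, and in control lungs from -0.0078 to 0.17 for Tgfb1. On the average of diets it ranged from -0.11 to 0.12 for Smad7, -0.059 to 0.058 for Tgfb1 and -0.041 to 0.020 for Tgfbr3.

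At day 21 the rebuilt control replicate 2, also with the replicate block, turned Tgfb3 to -0.083 and Tgfbr3 to -0.021. That replicate as filed turned Tgfbr1 to 1.09, Bmp4 to -0.54, Tgfb1 to -0.82, Smad7 to 0.032 and Tgfbr2 to 2.00, on values that are not per feature. Leaving out 1 IUGR array gave -0.21 to 0.086 for Smad3, -0.19 to 0.23 for Tgfb2 and -0.019 to 0.12 for Tgfb3, with no test. Control replicate 2 kept plain order only to feature 3366, and the planned rebuild in plain order was not fitted. The causes of these changes were not tested.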
